A study of Coturnix japonica with 24 samples.

Results

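The growth hormone and insulin-like growth factor (IGF) axis was followed in male Japanese quail (Coturnix japonica) through 9 genes: the ligand IGF1, the receptors GHR and IGF1R, and the binding proteins IGFBP1, IGFBP2, IGFBP3, IGFBP4, IGFBP5 and IGFBP7. A gene was taken where its symbol equals one of these names, and its transcripts were summed. The liver table lists all 9 among its 14983 genes. The table of adipose tissue lists 8 among its 15542, with no row for IGF1.

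The birds were housed on long days (16 hours of light to 8 of dark) and then held at 8 hours of light (8L), 12 hours (12v) or 16 hours (16v). Liver and abdominal white adipose tissue were taken, and each tissue and photoperiod gave 4 libraries, 24 in all. PolyA RNA was converted to cDNA, amplified by PCR and sequenced as long reads on an Oxford Nanopore instrument. How long the birds were held is not given in the sources used here, and the labels name no strain, allele or drug. The labels number the libraries of a group but do not say that each is a separate bird, so p-values measure the spread between these libraries.

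Growth hormone from the pituitary acts through its receptor GHR, and in liver it drives the synthesis of IGF1, most of which then circulates. IGF1 signals through IGF1R, a receptor tyrosine kinase close to the insulin receptor. IGF-binding proteins hold IGFs in blood and tissue and set how much reaches the receptor. IGFBP1 is known in mammals as a liver product that rises in fasting and falls with insulin. IGFBP2 is made by liver and by adipose tissue among others, and in mice its excess limits fat gain. IGFBP7 binds IGFs weakly and is found around blood vessels. In the quail RefSeq annotation (assembly Coturnix japonica 2.1), IGFBP2 lies next to IGFBP5 with 0 genes between them, and IGFBP1 lies next to IGFBP3, also with 0 between.

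An adipose library held 72716 to 1389063 counts and a liver library 72125 to 867217. Levels are CPM, a count relative to the scaled total of its library, given as mean ± SD with n = 4 unless stated. Changes are log2 fold changes ± SE. A change was called where the adjusted p of edgeR's quasi-likelihood test over all tested genes was under 0.05. Markers followed the tissue labels: the summed level of 10 hepatocyte genes was 85095 to 164963 CPM in liver libraries, and that of 7 adipocyte genes was 16752 to 49960 CPM in adipose libraries against 0 to 209 in liver. Hepatocyte genes still summed to 1751 to 20680 CPM in adipose libraries, but only 2 of the 10 passed the count filter there. The 3 skeletal muscle genes reached 62847 CPM in adipose 16v replicate 4. Ribosomal protein genes set liver 12v replicates 1 and 3, liver 16v replicate 1 and adipose 16v replicate 2 apart, the last with the lowest adipose total. In bulk tissue, fewer cells of a type and less RNA per cell cannot be told apart.

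Members with few reads were not tested. In adipose tissue 4 of the 8 listed genes passed the count filter (IGFBP2, IGFBP5, IGFBP7 and GHR). In liver 5 of 9 passed (IGFBP2, IGFBP1, IGFBP5, IGFBP7 and GHR). IGF1, the ligand, had 1 count in each of liver 8L replicates 2 and 3 and 12v replicate 2, and 0 in the other liver libraries. IGF1R had 50 counts over the 12 adipose libraries and 43 over the 12 liver libraries, with at most 9 in any library. IGFBP3, the main carrier of IGFs in the blood of mammals, had 2 counts in adipose tissue and 1 in liver. IGFBP4, a binding protein that generally inhibits IGF action, had 24 counts in adipose tissue, 12 of them in 8L replicate 2, and 20 in liver. IGFBP1 had 3 counts in adipose tissue. At these counts no change with photoperiod was detectable for IGF1R, IGFBP3 or IGFBP4 in either tissue, for IGF1 in liver, or for IGFBP1 in adipose tissue. Whether the annotation used for counting lowered these counts was not tested.

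IGFBP2 was the only member called with photoperiod in the main fit, and the call was in adipose tissue. Its level was 29.2, 10.9, 46.2 and 30.2 CPM in the 4 libraries of 8L. At 12v it was 1050, 322, 1198 and 634 CPM. At 16v it was 636, 1094, 231 and 446 CPM. Every library of 12v and of 16v lay above every library of 8L, and the ranges of 12v and 16v overlapped. The 8L mean was 29.1 ± 14.4 CPM and the 12v mean 801 ± 399, so IGFBP2 rose by 4.83 ± 0.63 on the log2 scale (adjusted p = 0.0237), or 28.4-fold. IGFBP2 was the gene with the smallest p in that comparison and the single gene called of 6494 tested. The share of genes called, 0.0154%, is thus IGFBP2 itself. The members were chosen with earlier results of these data known, so this rank is a description.

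At 16v the mean of IGFBP2 was 602 ± 368 CPM, a log2 change from 8L of 4.40 ± 0.62. It again had the smallest p of all genes (unadjusted p = 8.42e-06), but the adjusted p of 0.0547 missed the threshold. In this comparison edgeR called 0 genes (0%), with 439 at an unadjusted p under 0.05. DESeq2 called 38, IGFBP2 among them (adjusted p = 7.09e-10), and limma-voom called 0. Between 16v and 12v the change was -0.43 ± 0.53 (adjusted p = 0.999), and edgeR called 0 genes (0%), with 304 at an unadjusted p under 0.05, limma-voom 0 and DESeq2 5. IGFBP2 was 1 of the 4 tested members whose 8L libraries overlapped neither those of 12v nor, in the other comparison, those of 16v. Over all genes tested, 5.05% had groups that did not overlap at 12v against 8L, and 5.05% at 16v against 8L.

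**Figure D1:**
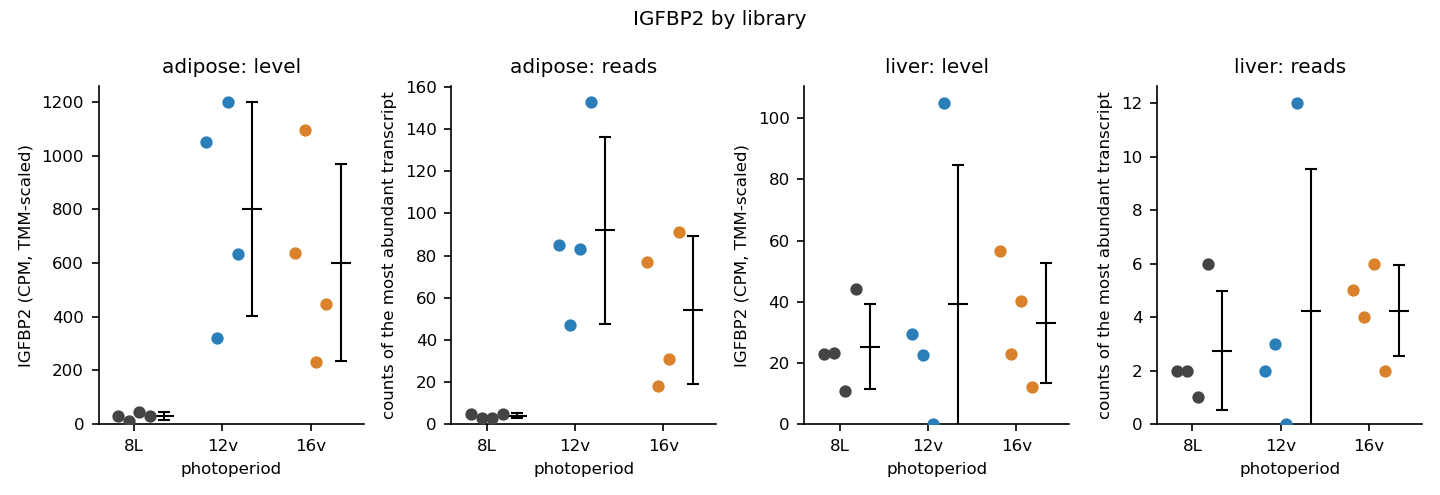
IGFBP2 in each library by photoperiod (8L, 12v and 16v), in adipose tissue (left pair) and liver (right pair). Points are libraries, and bars beside them give the mean ± SD of 4. The first panel of each pair shows the level in CPM and the second the counts of its most abundant transcript. In adipose tissue all libraries of 8L lie at 46.2 CPM or below and all others at 231 CPM or above, while in liver the 3 groups overlap at a maximum of 12 counts.

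The reads behind these values were fewer than the summed counts. IGFBP2 has 5 transcripts in the tables, and 4 of them held identical counts in every adipose library, so each read appears to be counted on each transcript. The most abundant transcript, which tracks the number of reads, held 5, 3, 3 and 5 counts in the 4 libraries of 8L. It held 85, 47, 83 and 153 counts at 12v, and 77, 18, 31 and 91 at 16v. The 18 counts of 16v replicate 2 came from a library of 72716 counts. With the most abundant transcript in place of the sum for every gene, the log2 change was 4.95 at 12v (adjusted p = 0.000254) and 4.41 at 16v (adjusted p = 0.00169), over 3819 genes tested. When each of the 5 transcripts was tested singly, the smallest adjusted p was 6.34e-05 at 12v and 0.000432 at 16v. These 5 rows hold nearly the same reads, so they are not independent tests. The adjustment counted those reads 5 times, and this adjusted p is no further evidence. No other gene's transcript held counts identical to those of IGFBP2.

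The call on summed counts depended on single libraries while the size of the change did not. With each of the 12 adipose libraries left out in turn, the log2 change at 12v stayed between 4.49 and 5.11. The adjusted p was under the threshold without 12v replicate 2 (0.0138), 16v replicate 2 (0.0209) or 16v replicate 3 (0.0146). It was over the threshold without 8L replicate 1 (0.220), 2 (0.120), 3 (0.0795) or 4 (0.112). The same held without 12v replicate 1 (0.0866), 3 (0.0747) or 4 (0.0668), and without 16v replicate 1 (0.0536) or 4 (0.0507). At 16v the change stayed between 3.97 and 4.65, and the call was gained without 12v replicate 2 (adjusted p = 0.0383), 16v replicate 3 (0.0266) or 16v replicate 4 (0.0339). With 1 transcript per gene, IGFBP2 was called in all 12 such fits for each comparison, with adjusted p from 3.88e-06 to 0.00527 at 12v and from 2.57e-05 to 0.0176 at 16v. Left-out fits with 1 transcript per gene were not planned. They were added after the data were seen, for IGFBP2 in adipose tissue and IGFBP7 in liver only.

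**Figure D2:**
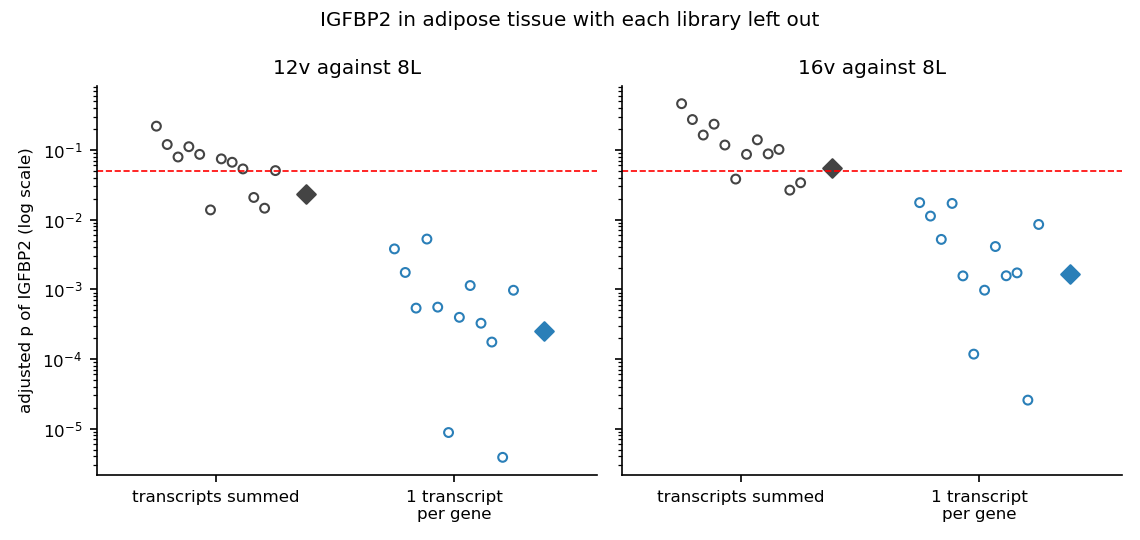
Adjusted p of IGFBP2 in adipose tissue (log axis) at 12v against 8L (left) and 16v against 8L (right). Open circles are fits with 1 of the 12 libraries left out, diamonds the fit of all 12, and the dashed line the threshold of 0.05. With transcripts summed the circles lie on both sides of the line (0.0138 to 0.220 at 12v), and with 1 transcript per gene all lie below it. The circles with 1 transcript per gene are fits added after the data were seen.

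The markers of other cell types in adipose tissue are given beside IGFBP2. Of 8 mesothelial genes, 3 had counts and 0 were tested, and their summed level was 0 to 10.9 CPM at 8L, 1.37 to 4.14 at 12v and 0 to 5.01 at 16v. UPK3B, UPK1B, KRT18, KRT19 and BNC1 had 0 counts. The 8 fibroblast and preadipocyte genes summed to 4524 to 10504 CPM at 8L, 4202 to 5682 at 12v and 1821 to 5163 at 16v. Hepatocyte genes summed to 1751 to 7041 CPM at 8L, 3186 to 12694 at 12v and 4489 to 20680 at 16v in adipose tissue. Only 2 of the 10 passed the count filter there, and their part in the IGFBP2 change was not tested. IGFBP2 in liver itself was at most 105 CPM, on the scale of that tissue, which is not that of the adipose levels. Skeletal muscle genes summed to 18.1 to 3839 CPM at 8L, 7.63 to 8793 at 12v and 13.4 to 62847 at 16v. Without 16v replicate 4, the library richest in muscle RNA, the log2 change at 16v was 4.53. Other libraries with muscle RNA stayed in that fit, and the part of muscle RNA in the IGFBP2 change was not tested.

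In liver IGFBP2 did not pass the threshold. Its level was 23.0, 23.1, 10.8 and 44.1 CPM at 8L, and 29.4, 22.5, 0 and 105 CPM at 12v. At 16v it was 56.5, 22.8, 40.4 and 12.0 CPM. The 3 groups overlapped, and the changes from 8L were 0.73 ± 0.81 at 12v (adjusted p = 0.651) and 0.35 ± 0.80 at 16v (adjusted p = 0.842). The most abundant transcript held at most 12 counts in a liver library, and with 1 transcript per gene IGFBP2 fell under the count filter there.

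IGFBP7, the weak IGF binder of vessel walls, was lower at 16v in adipose tissue and higher at 16v in liver, without a call in either. In adipose tissue its level was 460, 668, 936 and 474 CPM at 8L. At 12v it was 425, 535, 394 and 578 CPM, and at 16v it was 479, 219, 324 and 205 CPM. The library 16v replicate 1 lay within the range of 8L and the other 16v libraries below it. Of those lower libraries, 16v replicate 2 held 18 counts of IGFBP7 in a total of 72716. In another, 16v replicate 4, skeletal muscle genes summed to 62847 CPM. The mean was 634 ± 222 CPM at 8L, 483 ± 87.9 at 12v and 307 ± 127 at 16v. The change at 16v was -1.03 ± 0.34 (unadjusted p = 0.00966, adjusted p = 0.527) and at 12v -0.39 ± 0.34 (adjusted p = 1.0).

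In liver IGFBP7 was at 73.6, 66.9, 105 and 147 CPM at 8L. At 12v it was at 197, 299, 156 and 103 CPM, and at 16v at 213, 172, 182 and 272 CPM. All libraries of 16v lay above those of 8L, while 12v replicate 4 lay within the 8L range. The mean was 98.3 ± 36.6 CPM at 8L, 189 ± 82.8 at 12v and 210 ± 45.3 at 16v. The change was 0.95 ± 0.40 at 12v (adjusted p = 0.236) and 1.09 ± 0.40 at 16v (adjusted p = 0.141). Of the tested members in liver, 1 of 5 had groups that did not overlap at 16v against 8L, where 21.5% of all genes did, and 0 of 5 at 12v against 8L, where 12.4% did.

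With 1 transcript per gene, the change of IGFBP7 in liver at 16v was 1.21 and passed the threshold (adjusted p = 0.0397). That call was lost without liver 8L replicate 1 (0.0895), 2 (0.116) or 3 (0.105), or without 16v replicate 1 (0.0690), 2 (0.0610) or 4 (0.0899). At 12v the change with 1 transcript per gene was 1.01 (adjusted p = 0.101), and it passed without 12v replicate 4 (1.25, adjusted p = 0.0273). The 9 endothelial genes in liver summed to 50.6 to 126 CPM at 8L, 105 to 246 at 12v and 136 to 206 at 16v. Their sum too was higher in every 16v library than in any of 8L, but only 2 of the 9 passed the count filter. Smooth muscle and pericyte genes there summed to 43.8 to 64.4 CPM at 8L, 59.5 to 118 at 12v and 51.3 to 115 at 16v. Those sums overlapped between 8L and 16v. The 8 fibroblast genes in liver summed to 189 to 322 CPM at 8L, 145 to 529 at 12v and 368 to 538 at 16v. Hepatocyte genes in liver summed to 126183 to 164963 CPM at 8L, 88833 to 149367 at 12v and 85095 to 122418 at 16v, so every 16v library lay below those of 8L. In adipose tissue endothelial genes summed to 1403 to 3924 CPM at 8L and 930 to 1916 at 16v. The part of these cells in the IGFBP7 values was not tested.

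**Figure D3:**
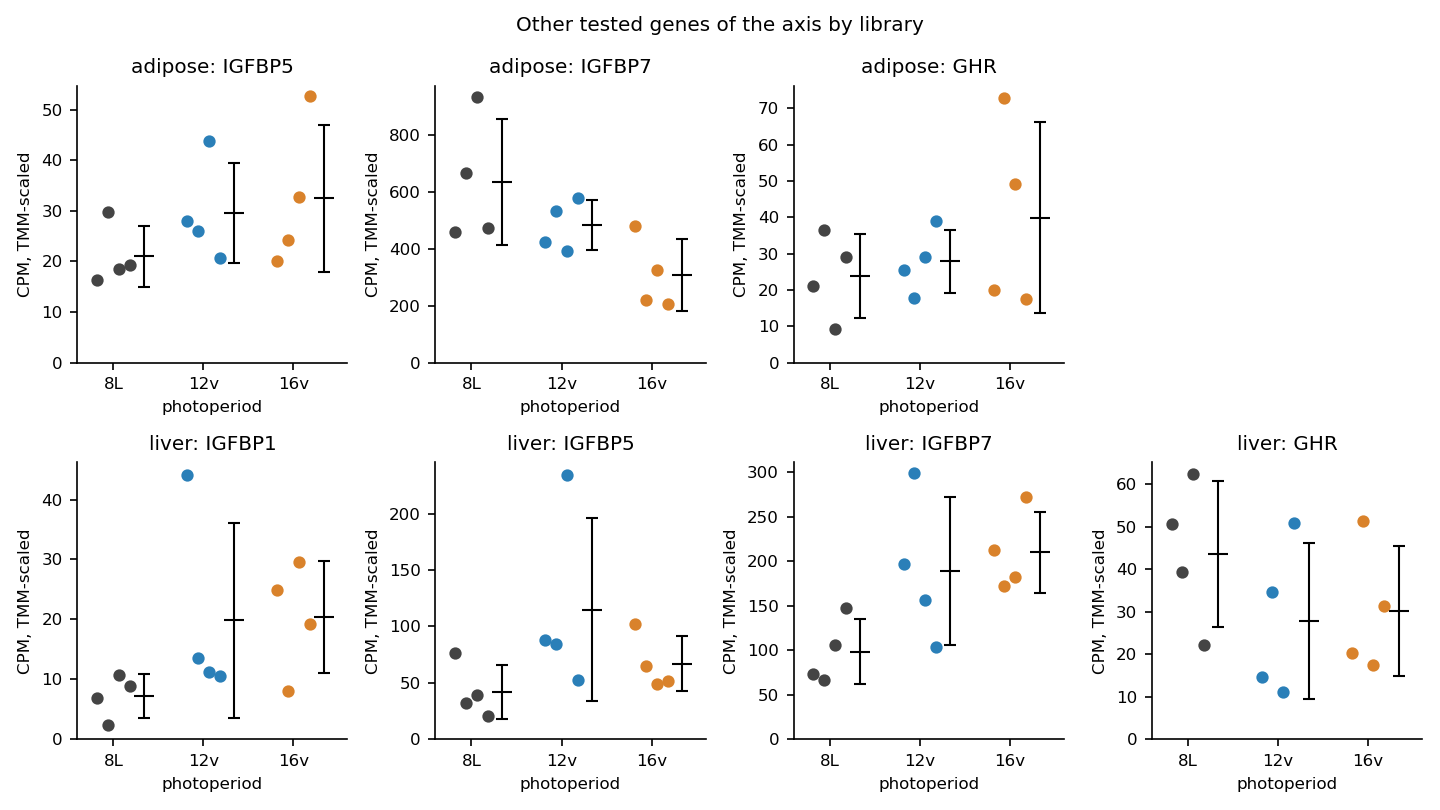
Levels of the other tested members in CPM by photoperiod, for adipose tissue (top row: IGFBP5, IGFBP7, GHR) and liver (bottom row: IGFBP1, IGFBP5, IGFBP7, GHR). Points are libraries and bars the mean ± SD of 4. IGFBP7 in liver at 16v (172 to 272 CPM) lies above all libraries of 8L (66.9 to 147 CPM), and in the other panels both 12v and 16v overlap 8L.

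IGFBP1, the fasting-responsive binding protein, averaged more at the longer photoperiods in liver but from few reads. Its level was 6.90, 2.31, 10.8 and 8.82 CPM at 8L, from 3, 1, 5 and 6 counts. At 12v it was 44.1, 13.5, 11.2 and 10.5 CPM, and at 16v 24.9, 7.98, 29.6 and 19.2 CPM. At 12v replicate 1 stood high and the others lay near the top of the 8L range. The change was 1.45 ± 0.72 at 12v (adjusted p = 0.303) and 1.45 ± 0.70 at 16v (adjusted p = 0.256). Without 12v replicate 1 the change at 12v was 0.69 (adjusted p = 0.709).

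IGFBP5, an abundant binding protein of extracellular matrix and the neighbour of IGFBP2, was not called in either tissue. In liver it was at 75.9, 32.3, 38.7 and 20.6 CPM at 8L, and at 88.2, 84.1, 234 and 52.5 CPM at 12v. At 16v it was at 102, 65.0, 48.4 and 51.6 CPM. The highest value came from 12v replicate 3, the liver library of 72125 counts, with 21 counts of IGFBP5. The change at 12v was 1.39 ± 0.55 (unadjusted p = 0.0262, adjusted p = 0.230), and 0.85 without that library (adjusted p = 0.424). It was 0.77 without the 3 liver libraries that ribosomal protein genes set apart (adjusted p = 0.619) and 0.56 in a fit that held a ribosomal protein score as covariate (adjusted p = 0.779). The change at 16v was 0.67 ± 0.54 (adjusted p = 0.502).

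In adipose tissue IGFBP5 averaged 21.0 ± 6.01 CPM at 8L, 29.6 ± 9.90 at 12v and 32.5 ± 14.6 at 16v. The changes from 8L were 0.45 ± 0.41 (adjusted p = 1.0) and 0.67 ± 0.42 (adjusted p = 0.828). The neighbouring gene of IGFBP2 thus had groups that overlapped where those of IGFBP2 did not.

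GHR, the receptor of growth hormone, was tested in both tissues and called in neither. In adipose tissue it averaged 23.9 ± 11.6 CPM at 8L, 27.8 ± 8.78 at 12v and 39.9 ± 26.3 at 16v, where 16v replicate 2 stood at 72.9 CPM from 6 counts. In liver it was at 50.6, 39.2, 62.4 and 22.1 CPM at 8L, at 14.7, 34.5, 11.2 and 50.7 CPM at 12v, and at 20.4, 51.3, 17.5 and 31.2 CPM at 16v. The groups overlapped in both tissues. The liver changes were -0.55 ± 0.58 at 12v (adjusted p = 0.633) and -0.52 ± 0.56 at 16v (adjusted p = 0.633). The low values of 12v and 16v included the 3 libraries with low ribosomal protein scores, and without those libraries the change at 12v was 0.02 (adjusted p = 0.991) and that at 16v was -0.31 (adjusted p = 0.775). The 17.5 CPM of 16v replicate 3 came from a library outside those 3.

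In liver edgeR called 0 of the 5 tested members in each of the 3 comparisons, with 2 at an unadjusted p under 0.05 at 12v against 8L, 1 at 16v against 8L and 0 at 16v against 12v. Over all 4532 genes, 831, 965 and 90 had an unadjusted p under 0.05 in edgeR. DESeq2 and limma-voom also called 0 members in each. Of all 4532 genes DESeq2 called 365, 546 and 3, and limma-voom 13, 221 and 0. The background of called genes in edgeR was 0.331% at 12v against 8L, 0.794% at 16v against 8L and 0.0221% at 16v against 12v. The median log2 change of the 5 was 0.95 at 12v and 0.67 at 16v, beside -0.08 and 0.07 over all genes tested. In adipose tissue the median of the 4 tested members was 0.31 at 12v and 0.59 at 16v, beside -0.03 and -0.06.

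**Figure D4:**
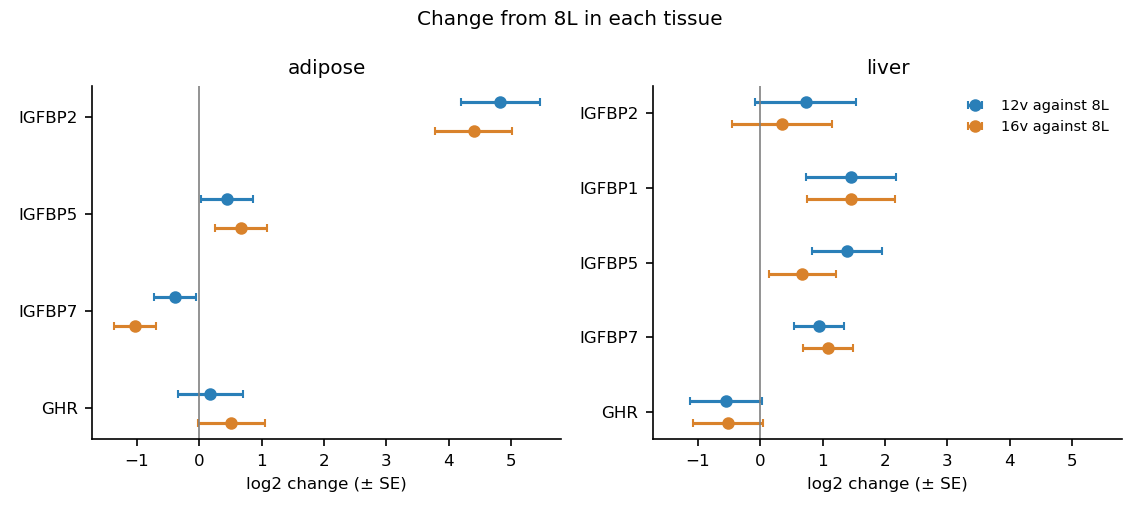
Log2 change from 8L at 12v and at 16v for each tested member, in adipose tissue (left) and liver (right). Points are edgeR estimates and bars ± 1 SE. IGFBP2 in adipose tissue stands at 4.83 and 4.40, and every other member lies between -1.03 and 1.45.

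The rest of the axis gave no call with photoperiod. Of 39 other genes of growth hormone and IGF signalling, 32 are listed and 14 were tested in adipose tissue, and 30 are listed and 15 were tested in liver. In adipose tissue edgeR called 0 in each comparison, with 1 of 14 at an unadjusted p under 0.05 in each, and in liver it called 0 of 15, with 0, 1 and 0 at an unadjusted p under 0.05. Over all genes, 324, 439 and 304 of 6494 had such a p in adipose tissue, and 831, 965 and 90 of 4532 in liver. DESeq2 and limma-voom called 0 list genes in every one of these comparisons. Of all genes DESeq2 called 12, 38 and 5 in adipose tissue and 365, 546 and 3 in liver. Limma-voom called 1, 0 and 0 in adipose tissue and 13, 221 and 0 in liver. The median change of the list at 12v was -0.03 in adipose tissue and 0.03 in liver.

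List genes with the smallest p in the comparisons are described here, and none of them passed the threshold. PIK3R1, a regulatory subunit of PI3-kinase below the insulin and IGF receptors, was at 135 ± 9.02 CPM in adipose tissue at 8L, 59.0 ± 30.2 at 12v and 126 ± 27.8 at 16v (-1.17 ± 0.37 at 12v against 8L, adjusted p = 0.610, and 1.06 ± 0.37 at 16v against 12v, adjusted p = 0.991). HTRA1, a secreted protease that cleaves binding proteins, was at 155 ± 35.3, 150 ± 42.1 and 95.7 ± 17.7 CPM in adipose tissue, and its 16v libraries lay below those of 8L (-0.68 ± 0.31, adjusted p = 0.738). In liver HTRA1 averaged 18 ± 9.22 CPM under 8L against 46.1 ± 18.5 under 16v, without overlap (1.34 ± 0.68, adjusted p = 0.280).

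INSR, the insulin receptor, was at 37.9 ± 11.9, 59.4 ± 31.7 and 66.2 ± 22.8 CPM in adipose tissue at 8L, 12v and 16v (adjusted p = 1.0 and 0.802 against 8L). In liver INSR had a mean of 31.9 ± 17.6 CPM under 8L against 10.2 ± 6.93 under 12v (-1.41 ± 0.85, adjusted p = 0.390). STAT5A, a transcription factor activated by GHR, was at 143 ± 39.2 CPM in liver at 8L, 72.4 ± 56.8 at 12v and 146 ± 56.9 at 16v (adjusted p = 0.445 at 12v against 8L and 0.999 at 16v against 12v). GRB2, an adaptor of receptor kinases, was at 256 ± 113 CPM in liver at 12v and 415 ± 141 at 16v (adjusted p = 0.999).

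The tissues were then compared in 1 fit of all 24 libraries over 7276 genes. The levels below are relative to the counts of all genes, scaled over both tissues. Those above are relative to the tested genes of 1 tissue, so the 2 sets of levels are not interchangeable. The share of all genes without overlap between the tissues is not given here, so overlap between tissues is a description of each gene alone. IGFBP1 was the member with the largest average difference, higher in liver. It averaged 18.6 ± 14 CPM over the 12 liver libraries against 0.331 ± 0.722 over the 12 adipose libraries (5.10 ± 0.59 on average, adjusted p = 1.57e-07). IGFBP1 was under the count filter in adipose tissue and entered this fit through its liver libraries alone. Its p here is therefore a description. The tissues did not overlap at 12v or 16v. At 8L the nearest libraries, adipose replicate 3 and liver replicate 2, held 1 count each, so their order rests on the scaling. After scaling between the tissues, the 3 adipose reads against 102 in liver gave a ratio of 62.2, with a 95% counting interval of 20.7 to 306. It is not the ratio of the reads alone, and the interval leaves out the error of the scaling.

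IGFBP2 was lower in liver than in adipose tissue at 12v and 16v, while at 8L the tissues overlapped. At 8L it was 28.7 ± 15.3 CPM in liver and 23.7 ± 11.1 in adipose tissue (0.32 ± 0.69, adjusted p = 0.763, and -0.27 with library size alone). At 12v it was 47.3 ± 54.7 in liver and 653 ± 322 in adipose tissue (-3.68 ± 0.72, adjusted p = 0.000398). At 16v it was 39.9 ± 22.4 and 459 ± 235 CPM (-3.54 ± 0.72, adjusted p = 0.000567). The tissues did not overlap at 12v or 16v. The test of the difference between the tissues in their change from 8L gave -3.99 ± 0.98 at 12v (unadjusted p = 0.000496, adjusted p = 0.0645) and -3.86 ± 0.98 at 16v (adjusted p = 0.0876), so neither passed. Both passed with 1 transcript per gene (adjusted p = 0.0266 and 0.0191) and in DESeq2 (0.00432 and 0.00396). With 1 transcript per gene IGFBP2 was under the count filter in liver. It entered that fit through adipose tissue alone, so that pass is a description. Neither difference passed in limma-voom or with a replicate block. Without liver 12v replicate 4 the difference at 12v was -5.05 (adjusted p = 0.0150), and without liver 12v replicate 3 that at 16v was -3.84 (adjusted p = 0.0459).

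IGFBP7 was lower in liver at 8L and was not called at 12v or 16v. At 8L it was 112 ± 39.6 CPM in liver and 519 ± 166 in adipose tissue, with no overlap (-2.22 ± 0.41, adjusted p = 0.000251). At 12v the difference was -0.85 ± 0.40 (adjusted p = 0.104), and at 16v it was 0.05 ± 0.40 (adjusted p = 0.949), with the opposite sign under RLE factors (-0.23) and library size alone (-0.60). The difference at 12v passed the threshold with RLE factors (-1.04, adjusted p = 0.0341), library size alone (-1.21, 0.0201), 1 transcript per gene (-0.94, 0.0467) and DESeq2 (-1.03, 0.0149). It also passed without adipose 12v replicate 1 (-1.31, adjusted p = 0.0209), liver 12v replicate 2 (-1.26, 0.0256) or liver 16v replicate 1 (-1.22, 0.0194). The change from 8L to 16v differed between the tissues by 2.27 ± 0.57 (unadjusted p = 0.000565, adjusted p = 0.0791). That difference passed with 1 transcript per gene (2.45, adjusted p = 0.0156), in limma-voom (0.0459), in DESeq2 (0.00245) and without liver 12v replicate 3 (2.36, 0.0459).

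**Figure D5:**
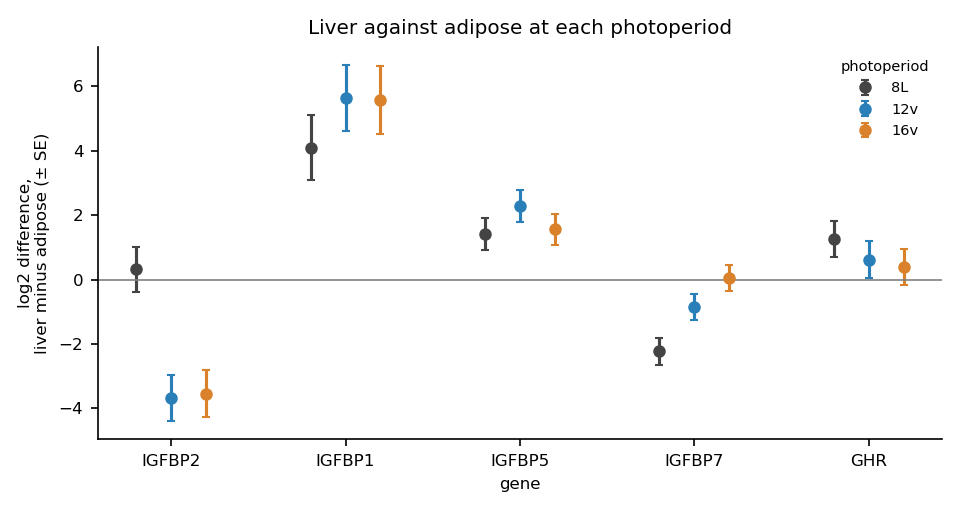
Log2 difference between liver and adipose tissue at each photoperiod for the 5 members tested over both tissues. Points are edgeR estimates from the fit of 24 libraries and bars ± 1 SE, with positive values higher in liver. IGFBP2 goes from 0.32 at 8L to -3.68 at 12v, and IGFBP7 from -2.22 at 8L to 0.05 at 16v.

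IGFBP5 was higher in liver, at 83.5 ± 49.8 CPM against 22.5 ± 9.34 over 12 libraries each (1.76 ± 0.28, adjusted p = 1.30e-05). Its differences were 1.42 ± 0.48 at 8L, 2.29 ± 0.49 at 12v and 1.56 ± 0.48 at 16v (adjusted p = 0.0281, 0.000937 and 0.0150). The call at 8L was lost with RLE factors (1.24, adjusted p = 0.0610), with library size alone (0.74, 0.268) and with a replicate block (1.37, 0.103). It was also lost without adipose 8L replicate 1 (0.0569), adipose 12v replicate 1 (0.0629), liver 8L replicate 1 (0.114) or liver 16v replicate 1 (0.0524). The call at 16v was lost with library size alone (1.03, 0.117) and without adipose 12v replicate 1 (1.10, 0.0834) or liver 16v replicate 1 (0.88, 0.189). IGFBP5 remained higher in liver in each of these fits.

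GHR was at 40.1 ± 20.6 CPM in liver and 24.3 ± 11.9 in adipose tissue (0.76 ± 0.32, adjusted p = 0.0498). That call stood at the threshold: the difference was 0.51 with RLE factors (adjusted p = 0.165), 0.15 with library size alone (0.697), 0.54 in DESeq2 (0.121) and 0.63 with a replicate block (0.227). It was also lost in 11 of 24 fits with a library left out, with the smallest difference at 0.42 without adipose 12v replicate 1 (adjusted p = 0.285) and the next at 0.50 without liver 16v replicate 1 (0.187). The other 9 were adipose 8L replicates 1 (0.0548) and 3 (0.0576), adipose 12v replicate 2 (0.0607), adipose 16v replicates 1 (0.0646) and 4 (0.0655), liver 8L replicate 3 (0.0605), liver 12v replicates 2 (0.0565) and 4 (0.0780), and liver 16v replicate 2 (0.0771). At 8L alone GHR differed by 1.25 ± 0.55 (adjusted p = 0.0926), and by 1.57 without liver 8L replicate 4 (0.0495).

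On average over the photoperiods, edgeR called 5 of 5 tested members, 3 higher in liver and 2 lower, where 57% of all genes were called. IGFBP1, among the 3 higher in liver, entered the fit through liver alone. DESeq2 called 4 of 5, without GHR. At single photoperiods 3 of 5 were called each time, beside 30.7% of genes at 8L, 35.5% at 12v and 35.7% at 16v. The median log2 difference over all genes was -0.36 in this fit, -0.58 under RLE scaling and -0.89 when only library size was used. For the difference between the tissues in their changes, edgeR called 0 of 5 members at 12v and 0 of 5 at 16v, with 2 each at an unadjusted p under 0.05. The background in edgeR was 0.426% at 12v and 0.302% at 16v. DESeq2 called 1 and 2 members beside 173 and 356 of all 7276 genes, and limma-voom called 0 and 1 beside 32 and 56.

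Of the other axis genes, 19 were tested over both tissues, and 12 differed on average, 8 higher in liver and 4 lower. With 57% of all genes called in that comparison, the count is near the background, and the genes below are given as values. IGFALS, the acid-labile subunit that holds IGFs in the large complex of blood, was at 21.3 ± 7.95 CPM in liver and 1.4 ± 1.69 in adipose tissue, with no overlap over 12 libraries each (adjusted p = 3.41e-06). IGF2, the second ligand, was at 20 ± 17.9 and 7.20 ± 3.80 CPM (adjusted p = 0.0116). PRLR, the prolactin receptor, was at 64.2 ± 64.4 and 11.1 ± 21.1 CPM (adjusted p = 0.0202). PIK3R1 was at 330 ± 77.0 and 86.2 ± 34.2 CPM (adjusted p = 2.92e-08).

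GRB14, an adaptor that inhibits the insulin receptor, had 42 reads in liver and 1 in adipose tissue. Scaled between the tissues, the ratio was 76.8 (95% counting interval 13 to 3104). GRB14 too entered the fit through liver alone. IGF2BP2, which binds IGF2 mRNA, had 22 and 3 reads, and the ratio scaled in the same way was 13.4 (4.03 to 70.0). Also higher in liver were GRB10, an adaptor related to GRB14 (1.54 ± 0.36, adjusted p = 0.000960), and IRS4, a docking protein of the insulin receptor family (1.10 ± 0.46, adjusted p = 0.0462). Among those lower in liver, HTRA1 was at 35.6 ± 24.6 against 109 ± 36.1 CPM (adjusted p = 6.76e-05). INSR was also lower, at 22.2 ± 17.2 against 43.5 ± 18 CPM (adjusted p = 0.0238). FOXO3, a transcription factor restrained by insulin signalling, was at 10.8 ± 8.72 against 25 ± 8.35 CPM (adjusted p = 0.00351).

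The genes whose level tracked IGFBP2 most closely over the 12 adipose libraries were ranked by Pearson's r of log2 CPM among 6047 tested genes with a symbol. Since IGFBP2 differed between 8L and the other groups, these are mostly genes that differed in the same libraries, and r is a description. FAM89A had the highest r, 0.92, with a mean level of 33.9 ± 10.5 CPM under 8L, 135 ± 30.4 under 12v and 175 ± 163 under 16v. SCG5, a chaperone of prohormone processing, had r = 0.91 but held 30 reads in all. PPL, a protein of cell junctions, had r = 0.91, with 77.3 ± 29.7, 202 ± 23.6 and 200 ± 75.2 CPM. ANXA1, an annexin that restrains inflammation, had r = 0.90 and rested on the most reads, with 496 ± 204, 1775 ± 194 and 1698 ± 494 CPM. PCOLCE2, an enhancer of collagen processing, had r = 0.88. None of these 5 genes passed the threshold in edgeR, with adjusted p from 0.293 to 0.610 at 12v and from 0.269 to 0.466 at 16v. The lowest r were those of CD164 (-0.90), SLC15A2 (-0.89) and GK2 (-0.83). CD164, a sialomucin, was at 102 ± 15.3 CPM at 8L, 47.9 ± 5.96 at 12v and 59.5 ± 4.20 at 16v.

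In liver, where IGFBP2 rested on 45 reads, the highest r over 12 libraries were those of HSF2 (0.92), RAPGEF6 (0.88), TOB2 (0.87), COQ5 (0.86) and NBEAL1 (0.85), and the lowest those of TP53BP2 (-0.80), GPR1 (-0.80) and ATG7 (-0.77). With so few reads these values are no finding, and none of the 5 highest in liver was among the 5 highest in adipose tissue.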

How the data were processed

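The authors deposited 1 table for each tissue, with an expected count for every transcript and library. Per the submitters' processing notes minimap2 and Salmon were used, with versions not given. Neither genome build nor annotation is named in the sources used here. Of the 56084 transcript identifiers with counts, 0 are in the quail RefSeq annotation that gave the gene positions above. The organism whose annotation was used for the counts is therefore not known here. Of the deposited values, 99.6% in adipose tissue and 99.5% in liver were whole within 1e-06; they were rounded and summed per gene, and 0 per-sample columns were left unused. The sum was 2.80 times the largest transcript at the median tested gene in adipose tissue and 2.76 times in liver; whether single reads were counted on several transcripts is not stated.

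The main test was edgeR 4.0.16 (R 4.3.3): TMM factors, filterByExpr (minimum count 10, minimum total 15), a robust quasi-likelihood fit of the 12 libraries of a tissue, and Benjamini-Hochberg adjustment over 6494 genes in adipose tissue and 4532 in liver. Liver and adipose tissue were compared in 1 fit of 24 libraries. SE is the size of the log2 change over the square root of F. The fits were also run on simulated counts, with results not reported here. The simulation used a common dispersion for all genes and did not model reads counted on several transcripts. Alternatives used limma 3.58.1 and DESeq2 1.42.0, other scaling and filters, 1 transcript per gene, a ribosomal protein score and left-out libraries. Intervals reflect counting error alone: PCR copies carried no molecular identifiers, so reads of 1 molecule may repeat. Named genes are all 9 members, list genes past the threshold or with the 2 smallest p per comparison, and the 5 highest and 3 lowest correlations with IGFBP2. The members and lists were chosen with earlier results of these data known. Some list genes that this rule names are not reported here.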

Additional observations from a re-analysis of the deposited data

Results flagged for a closer look

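IGFBP1 in liver 12v replicate 1 stood far from the other libraries of its group, at 44.1 CPM from 15 counts against 10.5 to 13.5 CPM. The gap was 0.910 of the group's range, over Dixon's 95% critical value for 4 samples. Chance flags about 1 in 20 groups, and 27 groups were examined. The same library is 1 of the 3 liver libraries that ribosomal protein genes set apart.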

How the results depend on the processing

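Of 1564 values under alternatives, for 61 results, 1448 kept their direction and their side of the threshold, 41 lost a call, 30 gained one and 45 changed sign; the cause was not tested. IGFBP2 in adipose tissue at 16v against 8L passed with no count filter (4.30), a stricter filter (4.44), DESeq2 (4.41), 1 transcript per gene (4.41), transcripts tested singly (4.38) and the ribosomal protein score (3.85), so 1 member was called in each of these instead of 0. With transcripts tested singly, IGFBP2 entered as 5 rows of nearly the same reads. At 16v IGFBP2 kept its side with RLE factors, library size, limma-voom and the fit of 2 groups alone (adjusted p 0.0683 to 0.178), and with the replicate block (4.50, adjusted p = 0.636). At 12v against 8L it was called in every setting but 1, the replicate block (4.78, adjusted p = 0.319), which left 0 members called. Within a tissue this block is the replicate number, which joins libraries whose label numbers differ. In the fit of both tissues, a replicate block also ended the calls of IGFBP5 at 8L (1.37, adjusted p = 0.103) and GHR on average (0.63, adjusted p = 0.227). The labels' numbers are shared between the tissues for 11 of 12 libraries of each, and no label says that a number marks 1 bird. By deviation from the group means, 0 of 11 pairs of the same label number between tissues correlated over 0.1, and 0 of 37 other pairs. Between tissues, 9 of 22 libraries correlated best with their own label number. Within a tissue no label number repeats, so pairs there share only the replicate number across photoperiods. Of these, 0 of 12 in adipose tissue and 3 of 12 in liver correlated over 0.1, against 5 of 36 and 4 of 36 other pairs. These values did not meet the rule for pairing and do not show that the birds differ. With single libraries left out, IGFBP2 ranged from 4.49 to 5.11 at 12v and from 3.97 to 4.65 at 16v, with 0 to 1 members called in each. Called members then numbered 2 to 4 between tissues at 8L, 3 to 4 at 12v, 2 to 3 at 16v and 4 to 5 on average, and for the difference in changes 0 to 1 at 12v and 0 to 2 at 16v. With 1 transcript per gene, 1 member was called in liver at 16v against 8L and 1 and 2 for the difference in changes at 12v and 16v; DESeq2 also called 1 and 2, and limma-voom 1 at 16v.

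Sign changes came in results that were not called. In liver at 16v against 12v, GHR was at -0.0055 (RLE factors), -0.13 (limma-voom), -0.045 (DESeq2), -0.087 (transcripts singly) and -0.33 (without the 3 low-score libraries). IGFBP1 was at -0.014 (RLE factors), -0.026 (library size), -0.020 (DESeq2), -0.044 (replicate block) and -0.0044 (transcripts singly), and IGFBP2 at 0.19 (replicate block). GHR against 8L in liver was at 0.0040 at 12v and 0.15 at 16v with the ribosomal protein score, and at 0.025 at 12v without the 3 libraries. In adipose tissue at 16v against 12v GHR was at -0.035 in limma-voom. Between tissues at 16v, IGFBP7 was at -0.23 (RLE factors), -0.60 (library size), -0.24 (DESeq2) and -0.065 (replicate block), and GHR at -0.26 (library size). IGFBP2 at 8L was at -0.27 (library size). Left-out libraries gave sign changes within these ranges. In adipose tissue they were -0.050 to 0.44 for GHR at 12v against 8L and -0.16 to 0.44 for IGFBP5 at 16v against 12v. In liver IGFBP2 went from -0.35 to 1.15 at 12v and from -0.039 to 0.80 at 16v against 8L. At 16v against 12v in liver they were -0.33 to 0.48 for GHR, -0.23 to 0.80 for IGFBP1, -0.76 to 0.72 for IGFBP2 and -0.047 to 0.49 for IGFBP7. Between tissues they were -0.050 to 0.65 for IGFBP2 at 8L, -0.030 to 0.83 for GHR at 16v and -0.38 to 0.49 for IGFBP7 at 16v, and -0.37 to 0.67 for the difference in changes of IGFBP5 at 16v.

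Over the settings that test genes, 0 to 12 genes were called in adipose tissue at 12v against 8L and 0 to 38 at 16v. In liver 1 to 365 genes were called at 12v and 13 to 546 at 16v. With transcripts tested singly, 19 and 16 transcripts were called in adipose tissue, and 229 and 708 in liver. At these depths IGF1R, IGFBP3 and IGFBP4 in both tissues, IGF1 in liver and IGFBP1 in adipose tissue had too few counts to test. Settings with a filter gave no value for the members it removed, among them IGFBP2 in liver with 1 transcript per gene. The fit with no count filter did give values for the genes too low to test, and none passed. The smallest adjusted p there was 0.458 (IGF1 in liver at 16v against 8L, -2.48, edgeR).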
